A study of Homo sapiens with 4 samples.

Results

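Guanylate-binding proteins were examined in cadmium-resistant breast cancer cells through the 5 genes GBP1, GBP2, GBP3, GBP4 and GBP5 of the cluster on chromosome 1, chosen by name from the 61541 genes of an RNA-seq count table. The choice was made with earlier results of these data known. MDA-MB-231, an established human breast cancer line of mesenchymal character, was selected for cadmium resistance by repeated passage in cadmium sulfate, at a final concentration of 10 µM. The control was the same line without treatment. Each group had 2 libraries (n = 2) of 1 cell line, the methods name no cloning step, and only the control labels call the replicates biological, so p-values measure the spread between these libraries, which may be technical. The control libraries carry the numbers 2 and 3 in the count table and are named control 2 and control 3, while the resistant libraries are named cadmium 1 and cadmium 2. All 5 genes had reads in every library, and all 5 passed the filter on low counts.

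Guanylate-binding proteins are large GTPases of the dynamin superfamily and are among the genes that interferon gamma induces most strongly. Interferon gamma binds its receptor, made of IFNGR1 and IFNGR2, and signals through the kinases JAK1 and JAK2, which raises IRF1, a transcription factor that acts on GBP promoters. In epithelial cells GBP1 assembles on the surface of invading bacteria, joins with GBP2, GBP3 and GBP4 in a coat, and brings in caspase-4, which cleaves gasdermin D. GBP1, GBP2 and GBP5 end in a signal for prenylation, the attachment of a lipid that anchors them to membranes.

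Total counts ranged from 51934729 to 61916007 reads per library. Control 2 stood apart from the other 3 libraries. For the 12924 genes whose normalized counts averaged 100 or more, the log2 ratio of control 3 to control 2 had a robust SD of 0.56 and that of cadmium 2 to cadmium 1 had one of 0.16. Against cadmium 1 and cadmium 2 it was 0.54 and 0.50 for control 2 and 0.34 and 0.31 for control 3, and values for the GBP genes are therefore given against each control. The line's markers VIM, CD44, AXL, KRT18 and KRT8 summed to between 3236 and 3537 TPM (counts scaled for gene length and for the summed scaled counts of the library) in every library. The estrogen and progesterone receptor genes ESR1 and PGR were near 0, whereas ERBB2, also listed as low in this line, stood at 34.9 to 47.5 TPM. The luminal markers CDH1, EPCAM, KRT19 and GATA3 summed to 580 to 865 TPM, most of it from KRT19.

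All 5 members lie on the minus strand of chromosome 1 (hg38). GBP3 (ENSG00000117226) spans chr1:89006679-89022894, GBP1 (ENSG00000117228) spans chr1:89051882-89065360, GBP2 (ENSG00000162645) spans chr1:89106132-89150456, GBP4 (ENSG00000162654) spans chr1:89181144-89198942 and GBP5 (ENSG00000154451) spans chr1:89256189-89272860. Interferon-stimulated response elements (ISREs), to which interferon-activated factors bind, were searched for in the RefSeq promoter windows (GRCh38.p14, 250 bases before to 50 bases after the start) on both strands as GAAA, any 2 bases and GAAA again, which reads TTTC, 2 bases and TTTC on the other strand. GBP1, GBP3 and GBP4 had a window, and each held 1 match, while 3.57% of 34796 promoters held any. The stretches of 30 bases around the match are shown because this element is the known link between interferon signalling and the family, and the capitals mark the match.
GBP1: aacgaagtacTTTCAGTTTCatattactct
GBP3: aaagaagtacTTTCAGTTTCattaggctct
GBP4: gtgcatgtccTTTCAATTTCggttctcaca
They lie at chr1:89065316-89065345, chr1:89022845-89022874 and chr1:89198927-89198956, all read on the minus strand. With the RefSeq start as position 0, the match ran from position -127 to -118 in GBP1, from 2 to 11 in GBP3 and from -4 to 5 in GBP4. The count table's gene models begin further upstream for GBP1 and GBP3, so that all 30 bases lay in annotated exon there, against 16 of the 30 in GBP4. An interferon gamma activated site, searched for on both strands as TTCNNNGAA, was found in the window of GBP3 from position -15 to -7 and not in those of GBP1 and GBP4, and 7.67% of all promoters held it. No match was found for either motif in the windows of the neighbouring family genes GBP6 and GBP7.

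The first question was which members differed between cadmium-resistant and control cells. GBP2 and GBP4 were lower in resistant cells, while GBP1, GBP3 and GBP5 were not called. DESeq2 called 2 of the 5 members lower and 0 higher at an adjusted p-value below 0.1, against 0.535% of 19816 tested genes called lower and 1.14% called in either direction. The members were chosen with earlier results of these data known, so setting these shares side by side does not test for an excess. Both cadmium libraries lay below both controls for the same 2 members, and this held for 19.9% of the tested genes. Both lay above both controls for 0 of the 5 members, against 20.3% of the tested genes. In bulk RNA, fewer cells that express a gene and less RNA of it per cell cannot be told apart.

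GBP4, a member of the coat on bacteria and the lower in abundance of the pair, stood at 377 normalized counts in control 2 and at 775 in control 3, against 134 in cadmium 1 and 193 in cadmium 2. Both resistant libraries were lower than either control, although the controls themselves differed by more than the resistant libraries did. The group means were 576 ± 282 and 163 ± 41.1 (SD, n = 2 each). On the log2 scale GBP4 differed by -1.82 ± 0.46 (SE; DESeq2, adjusted p = 0.0150), and the mean was 3.52-fold lower. Over the 4 pairings of a control with a cadmium library, GBP4 was between 2.0-fold and 5.8-fold lower, and 3 of the 4 pairings passed 2-fold.

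GBP2, a prenylated member that is also known to restrain the protease furin, gave 3600 normalized counts in control 2 and 4030 in control 3, against 2029 in cadmium 1 and 1880 in cadmium 2. Here the controls lay close together, as did the resistant libraries, and the groups were well apart. The group means were 3815 ± 304 and 1955 ± 106 (SD, n = 2 each), which differed by -0.96 ± 0.25 on the log2 scale (SE; DESeq2, adjusted p = 0.0268). GBP2 was between 1.77-fold and 2.14-fold lower over the 4 pairings, with 1 of the 4 past 2-fold.

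**Figure D1:**
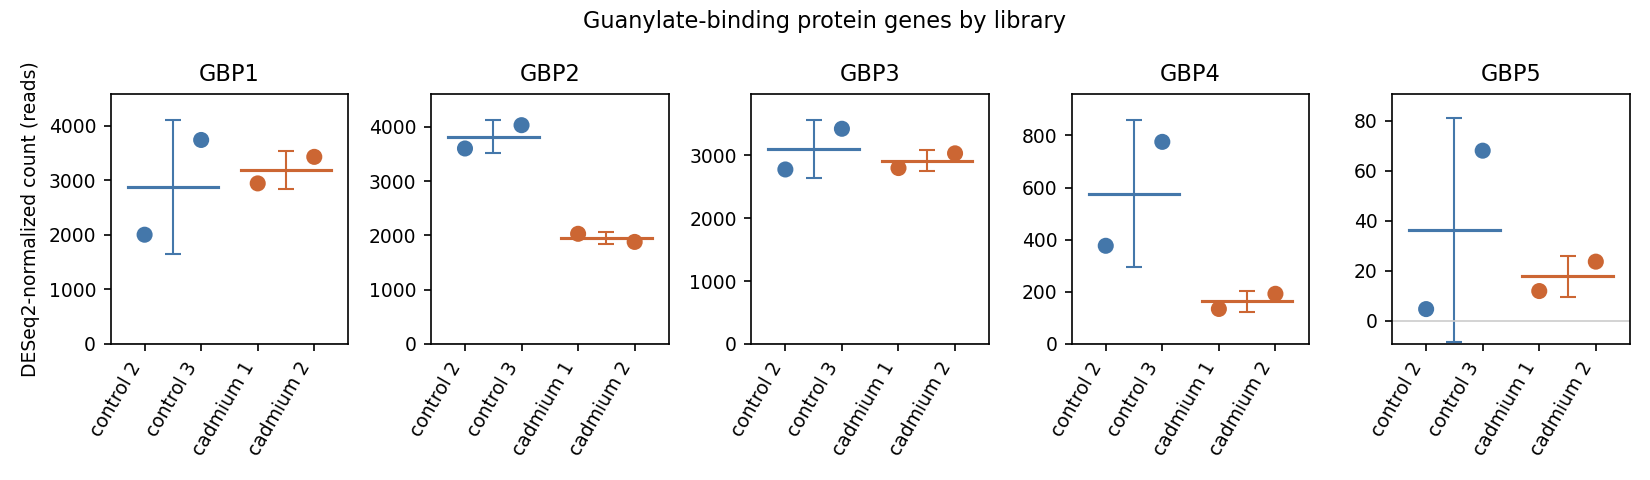
Normalized read counts of GBP1 to GBP5 in each library (points), with the mean of each group as a horizontal line and the SD (n = 2) as a bar, on a linear axis of its own for each gene. In GBP2 and GBP4 both cadmium libraries lie below both controls, whereas in GBP1, GBP3 and GBP5 both cadmium libraries lie between the controls.

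GBP1, the member that first coats bacteria, gave 2001 normalized counts in control 2 and 3736 in control 3, with cadmium 1 at 2941 and cadmium 2 at 3427. Both resistant libraries lay between the controls. The difference was 0.15 ± 0.37 on the log2 scale (SE; DESeq2, adjusted p = 1.00), with a 95% interval from -0.57 to 0.88.

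GBP3, the most abundant member per length, had normalized counts of 2777 and 3425 in the controls and 2800 and 3034 in the cadmium libraries. These also fell between the controls. In the DESeq2 fit of all libraries, the 95% interval of the log2 fold change, -0.62 to 0.44, left out a 2-fold change in either direction. This bound holds for that fit only. Its standard error, 0.27, was smaller than those of the fits without cadmium 1 and without cadmium 2.

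GBP5, a prenylated member linked to inflammasome assembly in macrophages, was barely detected, with 5 reads in control 2 and 64 in control 3, while cadmium 1 had 12 and cadmium 2 had 24. The log2 fold change was -1.03 with a 95% interval from -3.39 to 1.34, so that no difference was detectable in these libraries. The controls differed more than any cadmium library did from a control.

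The tests disagreed on the calls. The quasi-likelihood test of edgeR gave GBP2 an unadjusted p-value of 0.00211 and GBP4 one of 0.0108, and the edgeR adjusted p-value was 0.620 for both. edgeR called 0 of all genes, with 1506 at an unadjusted p-value below 0.05. DESeq2 was refitted with 1 library left out at a time. The lone library of a group was assumed to vary like the pair of the other group. Log2 fold changes were then -1.05 to -0.89 for GBP2 and -2.25 to -1.22 for GBP4. Their direction could hardly turn, as both cadmium libraries lay below both controls. The calls of both genes were lost without cadmium 1 (DESeq2 adjusted p-value 1.00 for each) and without cadmium 2 (1.00 for GBP2 and 0.556 for GBP4), when the spread rested on the control pair alone, and of all genes 5 were then called lower and 12 higher without cadmium 1, and 5 and 9 without cadmium 2. The direction of GBP1 depended on which control was used. It stood at -0.23 on the log2 scale when control 2 was left out and at 0.66 when control 3 was. GBP3 moved from -0.23 to 0.059 and GBP5 from -1.94 to 1.90 between the same fits.

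**Figure D2:**
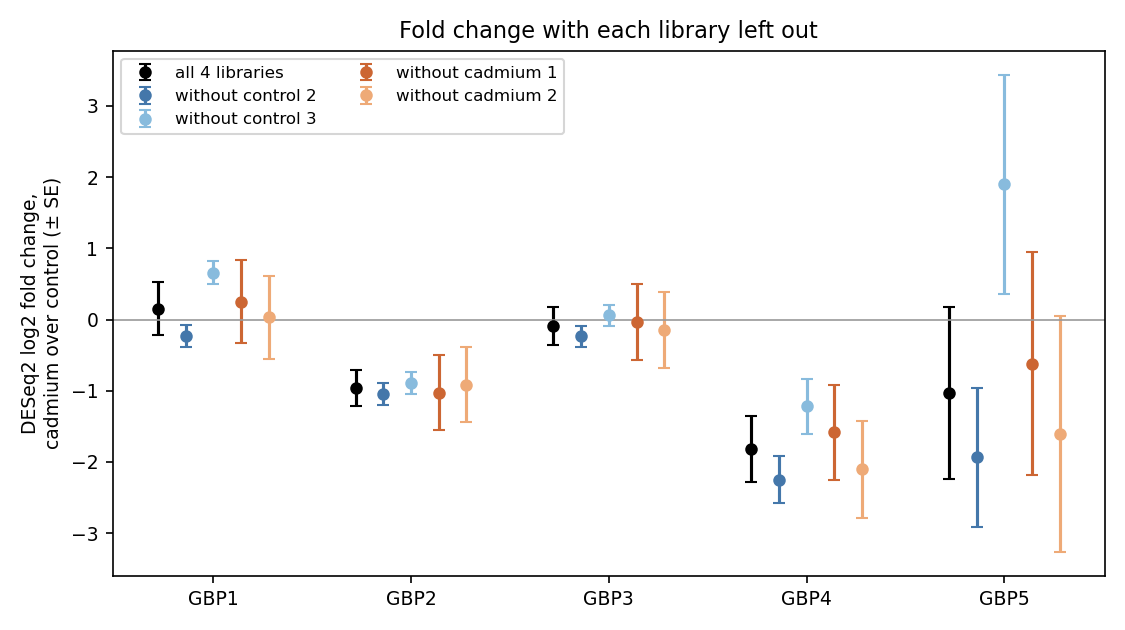
DESeq2 log2 fold change of cadmium over control for each member (points, with standard errors as bars), from all 4 libraries and with each library left out. GBP2 lies between -1.05 and -0.89 and GBP4 between -2.25 and -1.22 without any 1 library, whereas GBP1, GBP3 and GBP5 cross 0 between the fits without control 2 and without control 3.

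Levels of the members were compared per length, as TPM. In control cells GBP3 stood at 54.7 ± 11 TPM, GBP2 at 39.9 ± 5.32, GBP1 at 35.8 ± 17.1, GBP4 at 7.16 ± 3.84 and GBP5 at 0.258 ± 0.321 (SD, n = 2 each). GBP3 lay above GBP2 without overlap between libraries, whereas GBP2 and GBP1 did not differ beyond their spread. In resistant cells the order was GBP3 at 52.5 ± 1.56 TPM, GBP1 at 40.2 ± 3.25, GBP2 at 20.9 ± 1.69, GBP4 at 2.05 ± 0.461 and GBP5 at 0.125 ± 0.0551 (SD, n = 2 each), and each step was larger than the spread. In control 3, as in both cadmium libraries, GBP1 stood above GBP2, and only in control 2 was GBP2 the higher of the pair. The summed level of the 5 genes was 111 and 164 TPM in the controls and 113 and 118 TPM in the cadmium libraries, which lay between them.

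The make-up of this sum needs no scaling between libraries. GBP2 supplied 32.4% and 26.5% of it in the controls and 19.5% and 16.6% in the cadmium libraries. GBP4 supplied 3.99% and 6.0% in the controls and 1.52% and 2.01% in the cadmium libraries. GBP1 moved the other way in share, from 21.3% and 29.1% to 33.5% and 35.9%, and GBP3 from 42.2% and 38% to 45.4% and 45.3%. As the shares sum to a fixed total, a lower share of GBP2 and GBP4 raises the others.

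Ratios within a library use the same TPM values and so add no separate support. The groups were apart for 5 of the 6 ratios compared. GBP2 over GBP1 in TPM was 1.52 in control 2 and 0.911 in control 3, against 0.583 in cadmium 1 and 0.463 in cadmium 2. GBP2 over GBP3 was 0.769 and 0.698 in the controls and 0.430 and 0.367 in the cadmium libraries. GBP4 over GBP1 was 0.187 and 0.206 in the controls, close together although both genes differed between these libraries, and it was 0.0454 and 0.0558 in the cadmium libraries. GBP4 over GBP3 was 0.0946 and 0.158 in the controls and 0.0335 and 0.0443 in the cadmium libraries. GBP4 over GBP2 separated the groups narrowly, at 0.123 in control 2 and 0.120 in cadmium 2. The ratio of GBP1 over GBP3 had overlapping groups, with 0.506 and 0.766 in the controls and 0.737 and 0.793 in the cadmium libraries. With 2 against 2 libraries the exact two-sided permutation test cannot go below p = 0.333, which was the value for each of the 5 ratios whose groups were apart, and 0.40 after Benjamini-Hochberg adjustment over the 6 ratios compared.

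**Figure D3:**
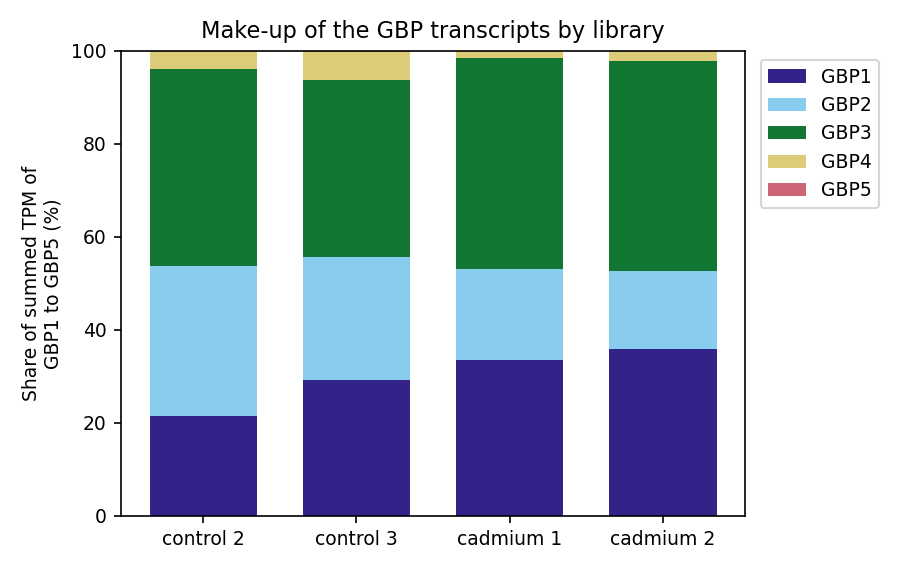
Share of each member in the summed TPM of GBP1 to GBP5 (stacked bars, percent) in each library. The share of GBP2 is 32.4% and 26.5% in the controls and 19.5% and 16.6% in the cadmium libraries, while GBP5, at most 0.295%, is too thin to be seen.

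Counting could blur close paralogs. Stretches of 150 bases, the read length, were searched for exactly among the GENCODE transcripts of other genes. None of those of GBP1, GBP3, GBP4 and GBP5 occurred in another gene, whereas 6.52% of those of GBP2 occurred in GBP7. For stretches of 50 bases the shares were 7.76% in GBP1, 8.82% in GBP2, 4.78% in GBP3, 4.28% in GBP4 and 0.465% in GBP5. Copies with mismatches were not searched for. GBP2 also shared 621 of its 7223 exon bases with GBP7 on the same strand, where the counting program by default assigns a read to neither gene. GBP7 itself had at most 2 reads in a library. GBP4 and GBP5 overlapped an unnamed gene on the other strand over 2.41% and 2.96% of their exon bases, and reads were counted without strand.

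The remaining genes of the cluster were hardly transcribed. GBP6 had 2 and 16 reads in the controls and 8 in each cadmium library. The pseudogene GBP1P1 had 3 and 28 reads in the controls and 6 and 8 in the cadmium libraries, and GBP7 had 0 and 2 in the controls and 2 and 0 in the cadmium libraries. A library without a read allows up to 3 counts by counting error. GBP5, GBP6 and GBP1P1, though far apart in level from GBP1 and GBP4, shared with them a higher level in control 3 than in control 2. The log2 ratio of control 3 over control 2 was 0.90 for GBP1, 0.16 for GBP2, 0.30 for GBP3, 1.04 for GBP4 and 3.59 for GBP5, against a median of -0.01 over the 18871 genes that averaged 10 or more normalized counts.

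Neighbouring genes gave the local level on chromosome 1. The 10 expressed genes on each side of the cluster, from chr1:85649417 to chr1:92063538, lay between -0.73 and 0.42 on the log2 scale with their median at -0.09, and DESeq2 called 0 of these 20 genes, with 0 at an unadjusted p-value below 0.05. The nearest of them, RBMXL1 and KYAT3 on the side of GBP3 and LRRC8B beyond GBP5, had log2 fold changes of 0.37, -0.43 and -0.11. Of the 20 genes 5 had both cadmium libraries below both controls and 4 had both above, close to the background shares of 19.9% and 20.3%. After subtraction of the neighbours' median, GBP2 remained at -0.88 and GBP4 at -1.73.

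**Figure D4:**
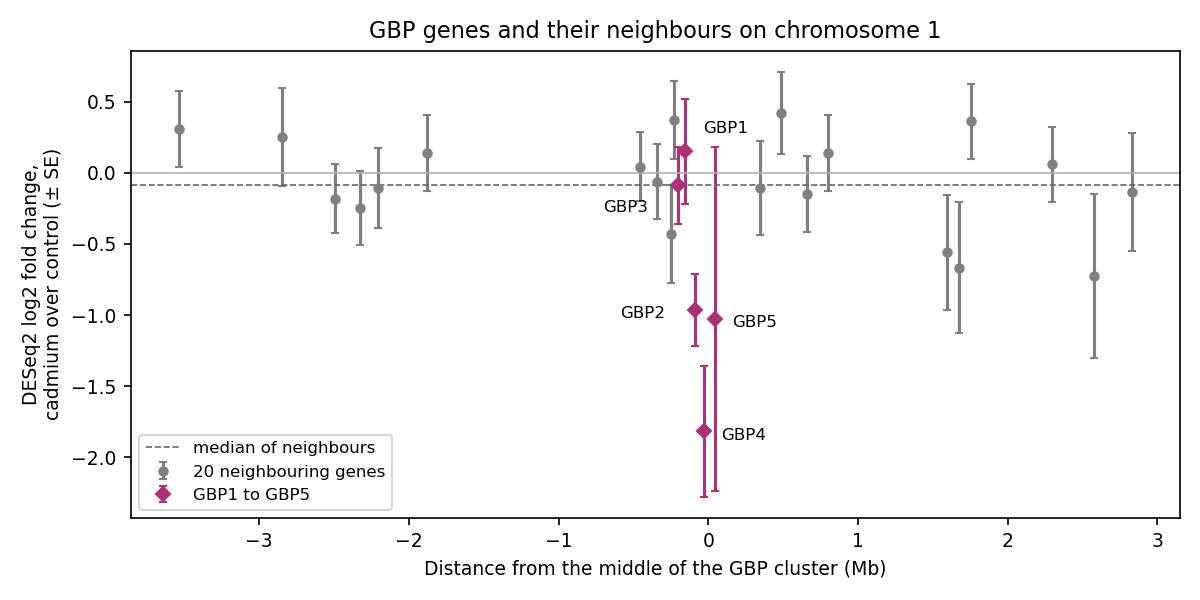
DESeq2 log2 fold change (cadmium over control, bars give the standard error) of GBP1 to GBP5 (diamonds) and of the 10 expressed neighbours on each side (circles), by distance from the middle of the cluster in megabases, with the neighbours' median as a dashed line. The neighbours lie between -0.73 and 0.42, above GBP2 at -0.96, GBP4 at -1.82 and GBP5 at -1.03 with its wide error, while GBP1 and GBP3 lie near 0.

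Other genes of the interferon and GBP pathways were then described from lists of 87 genes, 77 of which had a read and 71 of which averaged 10 or more normalized counts. DESeq2 called 0 of them lower and 1 higher, against background shares of 0.535% and 0.601%. Unadjusted p-values below 0.05 were found for 9 of the 77, against 1438 of the 33455 genes with a read. These shares cannot be compared directly, because the gene sets differ in level. The same limit holds for the counts of each list below. Of the 77 genes 71 averaged 10 or more normalized counts, against 18871 of the 33455. Over the 71 genes the median log2 fold change was -0.13, against -0.03 over all genes at that level. Both cadmium libraries lay below both controls for 17 of the 71 and above them for 8, against 3847 and 3799 of the 18871 genes at that level.

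Interferon ligands were at or near 0. IFNG, IFNB1, IFNA1, IFNE, IFNK, IFNL2 and IFNL3 had no read in any library, and IFNL1 had at most 4. The receptors and kinases, with 9 genes, had their median at -0.27 on the log2 scale and 0 called, 0 also at an unadjusted p-value below 0.05. That median was -0.16 without control 2 and -0.14 without control 3. IFNGR2, the signalling chain of the interferon gamma receptor, had normalized counts of 3435 and 2738 in the controls and 2126 and 2219 in the cadmium libraries, which differed by -0.51 on the log2 scale (DESeq2, adjusted p = 0.757). IFNGR1, the chain that binds the ligand, had a log2 fold change of -0.27, JAK1 one of -0.39 and JAK2 one of 0.33, each at an adjusted p of 1.00 in DESeq2.

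Of the 13 transcription factors 12 had a mean of at least 10, with a median of -0.20 (-0.12 without control 2) and 0 called, again 0 at an unadjusted p-value below 0.05. IRF1, which binds the response element of GBP promoters, had normalized counts of 2066 and 2051 in the controls and 1594 and 1447 in the cadmium libraries. Both cadmium libraries lay below both controls, which held for 19.9% of the tested genes. The log2 fold change of IRF1 was -0.44 (DESeq2, adjusted p = 0.826). STAT2 and IRF9, which act together in the type I response, had log2 fold changes of 0.05 and 0.12, and IRF2, which opposes IRF1, had one of -0.50. Inhibitors of the pathway had a median of -0.21, which was -0.059 without control 2 and -0.46 without control 3, with 0 of 10 called and 1 at an unadjusted p-value below 0.05. That gene was USP18, a brake on the type I receptor, which had normalized counts of 238 and 255 in the controls and 112 and 135 in the cadmium libraries. The log2 fold change of USP18 was -0.99 (DESeq2, adjusted p = 0.323). SOCS1 and SOCS3, which block the kinases, stood at -0.72 and 0.50 on the log2 scale, and the controls of both lay apart, at 259 and 63.8 for SOCS1 and 2719 and 6805 for SOCS3.

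Targets of interferon gamma were divided in direction. Over 25 of 31 target genes with a mean of at least 10 the median log2 fold change was -0.01, with 13 below 0 and 12 above, 0 called and 4 of the 31 at an unadjusted p-value below 0.05 (HLA-B, CD274, CXCL10 and IDO1, of which the first pair are named because of their values). The sign of this median turned to 0.05 with upper-quartile scaling, to 0.08 with limma-voom and to 0.36 without control 3, and the median was -0.23 without control 2. TAP1, the peptide transporter, had a log2 fold change of 0.08 and PSMB9, an immunoproteasome subunit, one of -0.14. CXCL10, a chemokine, had 14 and 6 reads in the controls and none in either cadmium library, and IDO1, which degrades tryptophan, had 2 and 13 reads in the controls and none in either cadmium library. Neither had an adjusted p-value. The list of large GTPases related to the family also held RNF213, which is from outside that class. Over its 10 of 12 genes at a mean of at least 10, the median was -0.19, with 0 called. DESeq2 gave 1 gene an unadjusted p-value below 0.05, ATL2 of the endoplasmic reticulum at -0.65. MX1 and MX2, which are induced by type I interferon and block viruses, had log2 fold changes of -0.71 and -0.67. Their adjusted p-values in DESeq2 were 0.739 and 0.807. Each had both cadmium libraries below both controls, which held for 19.9% of the tested genes. The controls of MX1 lay apart, at 1123 and 637 normalized counts, against 530 and 543 in the cadmium libraries. IRGM and IRGC had at most 4 reads, and ATL1, ATL3, DNM1, DNM2, DNM1L, IRGQ and RNF213 lay between -0.52 and 0.43.

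Partners of the GBP coat gave the only call among the lists. CASP4, the caspase that the coat activates, had normalized counts of 1858 and 1101 in the controls and 3397 and 3073 in the cadmium libraries. Both cadmium libraries lay above both controls, which held for 20.3% of the tested genes. They were higher by 1.65-fold to 3.09-fold over the pairings, which was 1.13 ± 0.34 on the log2 scale (SE; DESeq2, adjusted p = 0.0952). This call was lost under edgeR and limma-voom, without independent filtering, at a threshold of 0.05 and without either cadmium library. Unadjusted p-values below 0.05 were found for 3 genes in this list of 9, namely CASP4, CASP1 and IL1B. Over all genes with a read such values were found for 1438 of 33455, a set that differs in level. The list median was 0.12 (0.20 without control 2). IL1B, named because of its value, had a log2 fold change of -3.32. Its normalized counts were 530 in control 2 and 24.5 in control 3, against 25.9 and 29.6 in the cadmium libraries. Only control 2 lay far above the rest for IL1B, and both cadmium libraries lay above control 3. CASP1 had a log2 fold change of 1.17 (DESeq2, adjusted p = 0.463), and GSDMD, which encodes gasdermin D, one of -0.04. AIM2, a DNA sensor, stood at -0.35. The enzymes that prenylate GBP1, GBP2 and GBP5 had values near 0, with log2 fold changes of -0.13 for FNTA, 0.06 for FNTB and 0.16 for PGGT1B. PIM1, a kinase that holds GBP1 in check, had one of -0.35. FURIN, the protease that GBP2 and GBP5 restrain, had normalized counts of 17482 and 3264 in the controls and 4320 and 4224 in the cadmium libraries, and only control 2 lay far above the rest, with a log2 fold change of -1.28. In this list of 7 genes, with a median of -0.13 (-0.033 without control 2 and -0.21 without cadmium 1), 0 were called, with FURIN at an unadjusted p-value below 0.05.

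**Figure D5:**
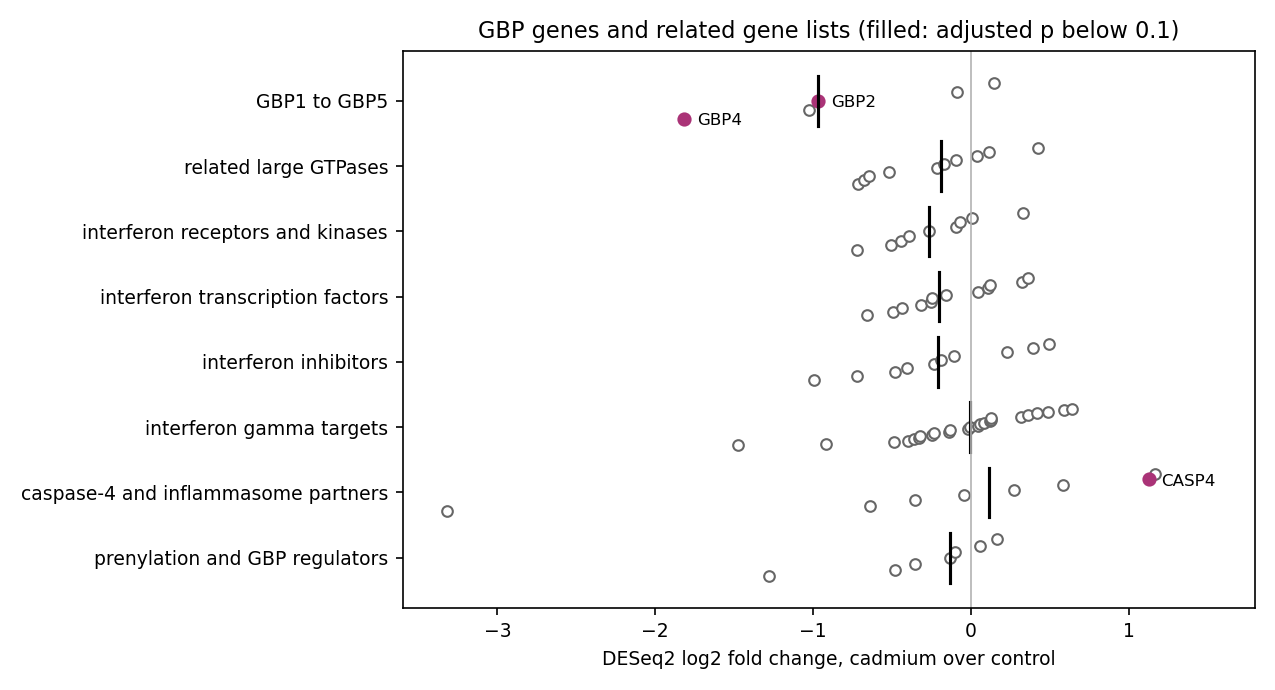
DESeq2 log2 fold change (cadmium over control) of each gene that averaged 10 or more normalized counts, by list (points, 1 per gene), with the list median as a vertical bar and genes at an adjusted p-value below 0.1 filled. GBP2 at -0.96 and GBP4 at -1.82 are the filled points to the left, CASP4 at 1.13 is the filled point to the right, and the list medians other than that of the members lie between -0.27 and 0.12.

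Genes with a profile most like GBP2 and GBP4 over the 4 libraries were found by the Euclidean distance between centred log2 profiles among the 14357 genes that averaged 50 or more normalized counts. These genes were picked for likeness, so fold changes near those of GBP2 or GBP4 follow from the choice. The p-values of the picked genes add no support. For GBP2 the genes were MELTF, ISG20, SEMA3B, PID1 and CCDC61, at distances of 0.0811 to 0.148. MELTF, a transferrin-related membrane protein, and SEMA3B, a semaphorin, had log2 fold changes of -0.94 and -0.88 with adjusted p = 0.0270 and 0.0391 in DESeq2. ISG20, an interferon-stimulated nuclease, had a log2 fold change of -0.85 (DESeq2, adjusted p = 0.213). For GBP4 they were IL22RA1, RARRES2, SYNGR3, PAPLN and JCAD, at distances of 0.302 to 0.445, and the counts of RARRES2 were 859 and 1667 in the controls and 385 and 513 in the cadmium libraries. The lists, of 5 genes each out of 14357, had no gene in common, and no meaning is drawn from this.

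Markers of immune cells, which express these genes strongly, were at low levels. CD3E had no read, ITGAM was at most 0.0275 TPM, and the marker list summed to 9.94 and 7.80 TPM in the controls and 3.98 and 6.25 TPM in the cadmium libraries. Most of this was CD14, at 9.73 and 6.31 TPM in the controls and 3.28 and 5.53 TPM in the cadmium libraries. PTPRC was at 0.0150 and 1.22 TPM in the controls, and at 0.316 and 0.350 TPM in the cadmium libraries. Endothelial markers summed to 1.71 to 8.70 TPM in the controls and 6.74 to 7.53 TPM in the cadmium libraries, and fibroblast markers to 6.13 to 8.55 TPM and 5.36 to 6.08 TPM. The part of these markers in the values of GBP2 and GBP4 was not tested.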

How the data were processed

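Total RNA was sequenced as paired-end reads of 150 bases. The deposited values are raw counts per gene: the authors trimmed adapters with bbduk, aligned reads to hg38 with HISAT2 and counted them with featureCounts 2.0.1 on the Ensembl annotation, pooling no replicates. The command in the table names no option for strand, read pairs, multiple mapping or overlapping genes, so mates were probably counted singly, and 70.6% to 71.5% of gene counts from 1 to 20 were even. Counts were tested with DESeq2 1.42.0 (R 4.3.3, Wald test, median-of-ratios size factors, Benjamini-Hochberg adjustment over 19816 genes with independent filtering at a mean of 7.69, called at an adjusted p-value below 0.1), after the study's methods. Scripts were tested on simulated data. TPM used the table's exon lengths. Alternatives were edgeR 4.0.16, limma 3.58.1 with voom, other scalings, filters and thresholds, halved counts and each library left out. Named genes were the members, the other cluster genes, related GTPases, fixed pathway genes, called list genes and the 5 nearest profiles. Members and gene lists were chosen with earlier results of these data known. Depth was 51934729 to 61916007 counts per library, and a count of 0 allows up to 3 counts, for counting error only. Some listed genes are not reported here.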

Additional observations from a re-analysis of the deposited data

How the results depend on the processing

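GBP2 and GBP4 had log2 fold changes of -1.05 to -0.88 and -2.25 to -1.22 over 12 alternatives each. Leaving out 1 library could hardly turn their direction, as both cadmium libraries lay below both controls. Without independent filtering GBP2 and GBP4 kept the fold changes of the main fit, because that filter acts on adjusted p-values only. Under edgeR they stood at -0.96 and -1.81 (edgeR adjusted p-value 0.620 for both), with 0 members, 0 genes lower, 0 higher and 0 pathway genes called, and 1506 genes at an unadjusted p-value below 0.05. Under limma-voom they stood at -0.96 and -1.73 (limma adjusted p-value 0.669 for both), with the same counts of 0, 1423 genes at an unadjusted p-value below 0.05 and a median of all pathway lists of -0.056, which was -0.068 with upper-quartile scaling. That scaling called 88 genes lower and 152 higher, against 106 and 119. The 1 pathway gene called higher fell to 0 without independent filtering and at a threshold of 0.05. Leaving out 1 library gave -0.23 to 0.66 for GBP1, -1.05 to -0.89 for GBP2, -0.23 to 0.059 for GBP3, -2.25 to -1.22 for GBP4 and -1.94 to 1.90 for GBP5. It gave 0 to 2 members called lower and 0 to 1 higher, 5 to 3511 genes lower and 9 to 2678 higher, 0 to 20 pathway genes lower and 0 to 20 higher, and a pathway median of -0.13 to -0.038. The summed TPM of the members, at a log2 ratio of -0.25, ranged from -0.51 without control 2 to 0.056 without control 3. The cause of these changes was not tested. No paired analysis was possible because control libraries are numbered 2 and 3 in the table but 1 and 2 in the labels. With 2 libraries a group, and 5 to 64 reads for GBP5, changes in that gene were not detectable.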
